A study of Mus musculus with 2 samples.

Results

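Methionine and one-carbon metabolism was followed through 10 genes, Mat1a, Gnmt, Bhmt, Ahcy, Cbs, Cth, Pemt, Shmt1, Nnmt and Sardh, chosen by symbol from the 32285 genes of a mouse liver single-cell RNA matrix. All 10 symbols matched 1 row each. The study profiled 1 liver labelled Cebp KO and 1 labelled Cebp WT, which the series describes as a knockout of CEBPA, a transcription factor of hepatocytes, in hepatocytes only. Both samples came from mice that had eaten a 40% HFCFD (high fat, cholesterol and fructose) for 2 weeks. Per the methods, the deletion came from a floxed Cebpa allele and Cre driven by the albumin promoter, on a C57BL/6N background, in males, and the age and the number of animals per sample are not used here. Cells were freed by perfusion and digestion of the liver, purified on Percoll and captured with the 10x 3' v3.1 chemistry, in which each unique molecular identifier (UMI) marks 1 captured RNA molecule.

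Barcodes end in suffix 1 or suffix 2. What a suffix stands for is not stated, and neither suffix is assigned to a genotype. Barcodes that share a suffix were treated here as 1 library. The libraries are therefore called suffix 1 and suffix 2, no genotype was read from their values, and no ratio of knockout to wild type is given. With 1 sample per genotype and cells that are not replicates, no test was run. Intervals are 95% and cover counting error only, so a difference between the libraries has no replicate check.

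Suffix 1 held 17313 barcodes and suffix 2 held 15003, with medians of 1515 and 2076 UMIs. The median share of mitochondrial UMIs was 4.07% with suffix 1 and 41.3% with suffix 2. Barcodes of at least 500 UMIs, 200 genes and at most 25% mitochondrial UMIs were kept, 11617 with suffix 1 and 6088 with suffix 2, and 34 barcode sequences of these occurred in both. Hepatocytes were gated by 14 markers such as Alb. Hepatocytes of at least 5000 UMIs are called deep (648 with suffix 1, median 24346.5 UMIs; 534 with suffix 2, median 12628 UMIs) and hepatocyte droplets below that are called shallow (8704 and 3423, medians 1142 and 1204 UMIs). All 14 hepatocyte markers were at 20 CPM (UMIs per 1000000 UMIs) or more in deep hepatocytes of both libraries. The summed level of each of the 12 marker lists of other cell types was 3.83 to 645 CPM there and at least 5.16 times higher in the list's own class. The gates used these same markers, so these levels describe the gated cells and are no independent check of them. In deep hepatocytes, Cebpa itself had a level of 1.21 CPM (0.717 to 1.91) for suffix 1 against 110 CPM (103 to 118) for suffix 2.

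As background, the liver turns methionine into S-adenosylmethionine, the methyl donor of the cell, by methionine adenosyltransferase. Methyltransferases spend the donor, the product is split to homocysteine, and homocysteine is either methylated again, with betaine or a folate as donor, or passed through cystathionine to cysteine. Hepatocytes are the body's main site of this cycle, and they use its methyl groups for phosphatidylcholine, the membrane lipid also packed into lipoproteins.

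The members are spread over 7 chromosomes in GRCm38 (GENCODE M21). Mat1a, the liver methionine adenosyltransferase, lies on chromosome 14 (41105035 to 41124412, plus strand). Gnmt, glycine N-methyltransferase, which spends the methyl donor on glycine, lies on chromosome 17 (46725664 to 46729168, minus strand), as does Cbs, cystathionine beta-synthase (31608894 to 31637238, minus strand). Bhmt, which methylates homocysteine with betaine, lies on chromosome 13 (93616675 to 93637961, minus strand). Pemt, which makes phosphatidylcholine from phosphatidylethanolamine, lies on chromosome 11 (59970614 to 60046489, minus strand). Nnmt, which methylates nicotinamide, lies on chromosome 9 (48591877 to 48605153, minus strand). Ahcy (155059310 to 155074497) and Sardh (27188393 to 27248337) lie on the minus strand of chromosome 2, Shmt1 (60788104 to 60811718) on that of chromosome 11 and Cth (157894248 to 157925077) on that of chromosome 3. Each is a protein-coding gene. Other genes lie on the opposite strand within the spans of Gnmt (Gm26904), Bhmt (Gm15622), Ahcy (Gm45609), Shmt1 (Gm24945 and Smcr8) and Sardh (Sardhos). Within the span of Cth, Gm43314 lies on the same strand. How reads in these overlaps were counted was not tested.

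Promoter sequences of RefSeq (GRCm38.p6) were matched for 7 of the 10 members in 8 windows, with 2 windows for Pemt. The 120 bases before the start site are shown for Gnmt and Bhmt, the pair of members that varied most closely together from cell to cell, and for Cbs and Pemt (the first of its windows), which differed by more than 2-fold between the libraries. They were picked after these values were seen. All are on the minus strand and written 5′ to 3′, and capitals mark each CCAAT box, in either orientation (CCAAT or ATTGG).
Gnmt, chr17:46729166-46729285: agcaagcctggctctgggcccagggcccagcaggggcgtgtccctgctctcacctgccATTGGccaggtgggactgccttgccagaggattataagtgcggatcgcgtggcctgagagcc
Bhmt, chr13:93637759-93637878: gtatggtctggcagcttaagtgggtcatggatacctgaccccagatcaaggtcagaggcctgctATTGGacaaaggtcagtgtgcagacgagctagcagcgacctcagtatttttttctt
Cbs, chr17:31637206-31637325: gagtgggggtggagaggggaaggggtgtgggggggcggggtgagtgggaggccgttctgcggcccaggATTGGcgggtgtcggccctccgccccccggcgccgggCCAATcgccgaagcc
Pemt, chr11:60040189-60040308: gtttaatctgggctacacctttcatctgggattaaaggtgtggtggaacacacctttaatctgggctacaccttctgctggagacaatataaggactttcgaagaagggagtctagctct

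The box begins 62 bases before the start in Gnmt, 56 in Bhmt and 52 in Cbs, which has another 15 bases before the start. Shmt1 has one 47 bases before its start, and these 4 windows were the only ones of the 8 with CCAAT in the 120 bases, against 21.3% of 32851 RefSeq promoters. Over the whole window of 250 bases before to 50 after the start, 6 of 8 member windows and 37.4% of all promoters held it. TTGCNNAA, a form of the motif that C/EBP factors can bind, was in 0 of the 8 windows and in 10.8% of all promoters, searched on both strands. These are letter matches and no measure of binding, and the 3' chemistry reads the other end of the transcript.

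The first comparison asked how much of each gene the deep hepatocytes of each library held. UMIs count captured 3' ends and were not divided by transcript length, so levels are read within a gene and the order of genes is an order of captured UMIs. Bhmt, Gnmt and Mat1a led in both libraries. The Bhmt level in suffix 1 was 4994 CPM (4958 to 5030), or 115 UMIs per cell, and in suffix 2 it was 3032 CPM (2994 to 3071), or 44.9 UMIs per cell. For Gnmt the level in suffix 1 was 2059 CPM (2036 to 2082), and in suffix 2 it was 2203 CPM (2170 to 2235). Mat1a had 1536 CPM (1516 to 1556) in suffix 1 against 1726 CPM (1697 to 1755) in suffix 2. The other 7 lay between 51.2 and 312 CPM with suffix 1 and between 101 and 410 CPM with suffix 2.

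**Figure D1:**
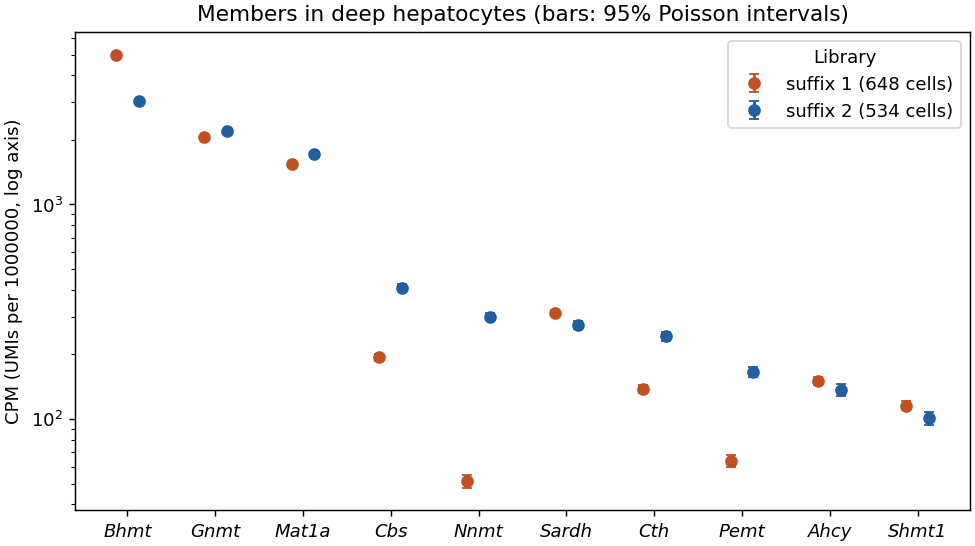
Level of each member in deep hepatocytes (CPM, log axis), ordered by the level with suffix 2. Points are sums over 648 cells (suffix 1) and 534 cells (suffix 2), and bars are 95% Poisson intervals, mostly smaller than the points. Nnmt, Pemt, Cbs and Cth sit lower with suffix 1, and Bhmt sits higher.

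The order below the leading 3 differed. With suffix 1 it ran Sardh, Cbs, Ahcy, Cth, Shmt1, Pemt and Nnmt, and with suffix 2 Cbs, Nnmt, Sardh, Cth, Pemt, Ahcy and Shmt1. Neighbours in each order had intervals that did not overlap. Nnmt was thus the lowest of the 10 members in 1 library and the fifth in the other.

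Of the 10 members, 3 were at least 2-fold lower with suffix 1 than with suffix 2 (Nnmt, Pemt and Cbs) and 0 were at least 2-fold higher. Of 4738 genes at 20 CPM or more in either library, 2.15% were lower and 2.24% were higher by that measure. The median log2 ratio of suffix 1 to suffix 2 was -0.13 over the members and 0.03 over all genes.

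**Figure D2:**
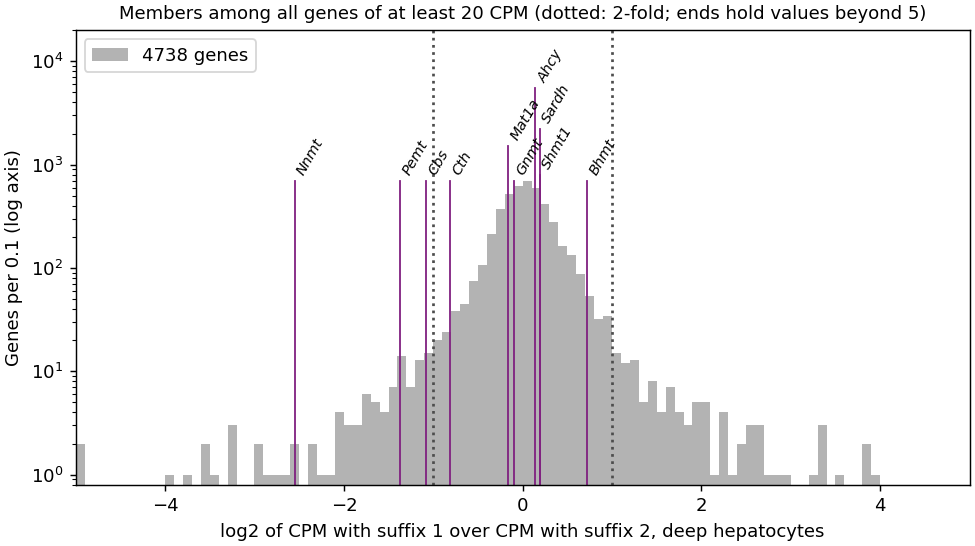
Histogram of the log2 ratio of CPM with suffix 1 to CPM with suffix 2 in deep hepatocytes for 4738 genes (genes per bin of 0.1, log axis), with a purple line for each member. Dotted lines mark 2-fold. Nnmt, Pemt and Cbs lie left of the lower line, and 0 members lie right of the upper line.

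Nnmt showed the widest gap. The 761 UMIs of suffix 1 gave 51.2 CPM (47.6 to 54.9) and the 2373 UMIs of suffix 2 gave 300.0 CPM (288 to 312), which was 5.86-fold higher (5.40 to 6.37). Within the same depth range, where median depths still differed (31930.5 and 25374 UMIs in the deepest), the ratio was 4.76 in cells of 5000 to 10000 UMIs, 6.14 at 10000 to 20000 and 5.97 at 20000 or more. After each deep cell was thinned to 5000 UMIs, 21.1% of cells with suffix 1 and 70.6% with suffix 2 had an Nnmt UMI (unthinned 53.4% and 88.0%). B cells, which should lack Nnmt, gave 9.71% and 25.9% unthinned, at medians of 3563 and 2981 UMIs. Those medians are below 5000 UMIs, so these shares are only a rough background at unlike depth. The Nnmt level in B cells was 25.9 CPM with suffix 1 and 93.4 CPM with suffix 2.

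The Pemt level in suffix 1 was 64.1 CPM (60.1 to 68.3), and in suffix 2 it was 166 CPM (157 to 175), 2.59-fold higher (2.38 to 2.81). The same ratio was 3.20, 2.31 and 2.59 in the 3 depth ranges from the shallowest to the deepest. Both genes are methyltransferases that spend S-adenosylmethionine, as is Gnmt, whose ratio of suffix 1 to suffix 2 was 0.935 (0.918 to 0.952).

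The pair of enzymes that lead homocysteine to cysteine were also lower with suffix 1. Cbs had 194 CPM (187 to 202) in suffix 1 against 410 CPM (396 to 425) in suffix 2, a ratio of suffix 1 to suffix 2 of 0.474 (0.450 to 0.498). Cth, cystathionine gamma-lyase, had 138 CPM (132 to 144) in suffix 1 against 243 CPM (232 to 254) in suffix 2, a ratio of 0.569 (0.534 to 0.605) that stayed inside the 2-fold limit. The gap of Cth was smaller in the shallowest range, with ratios of 0.825, 0.608 and 0.625 in cells of 5000 to 10000, 10000 to 20000 and 20000 or more UMIs. Cbs was near that limit. Its ratio was 0.666 in cells of 5000 to 10000 UMIs, 0.438 at 10000 to 20000 and 0.462 at 20000 or more, and it was past 2-fold in 7 of 13 other settings, against 13 of 13 for Nnmt and for Pemt.

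Bhmt was the member with the largest ratio upward, 1.65 (1.62 to 1.67) with suffix 1 over suffix 2. It was 2.15 at 5000 to 10000 UMIs, 1.59 at 10000 to 20000 and 1.80 at 20000 or more. Gnmt moved more with depth, from 1.92 at 5000 to 10000 UMIs to 0.905 and 0.894 in the deeper ranges, so the pooled Gnmt ratio near 1 joined opposite directions.

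The other 4 members differed by at most 1.14-fold. The ratio of suffix 1 to suffix 2 was 0.890 (0.871 to 0.909) for Mat1a and 1.10 (1.03 to 1.19) for Ahcy, which splits S-adenosylhomocysteine. It was 1.14 (1.05 to 1.24) for Shmt1, the cytosolic enzyme that moves a carbon from serine to folate, and 1.14 (1.08 to 1.20) for Sardh, the mitochondrial enzyme that strips the methyl group from sarcosine. The direction of Mat1a, Gnmt, Ahcy and Sardh reversed in at least 1 setting. No member rested on a single cell, since the cell with the most UMIs of a member gave 0.477% to 1.97% of them.

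The wider pathway was read from 8 lists of 72 other genes, of which 53 were at 20 CPM or more. Of these, 3 were at least 2-fold lower with suffix 1 and 2 were higher, beside 2.15% lower and 2.24% higher over all genes, and the median log2 ratio was 0.00. The lower genes were Chka, the choline kinase that starts the other route to phosphatidylcholine (35.2 CPM with suffix 1 and 107 with suffix 2), Gldc, the glycine decarboxylase of the glycine cleavage system (84.6 and 210 CPM), and Aox3, an aldehyde oxidase (128 and 295 CPM). The higher genes were Csad, which acts in the making of taurine from cysteine (107 and 33.8 CPM), and Nampt, which salvages nicotinamide into NAD (70.3 and 31.7 CPM).

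Among the separate lists, 0 of 6 measured methionine cycle genes, 0 of 8 folate genes, 0 of 6 genes of other methyl transfer and 0 of 6 genes of polyamine and methionine salvage passed 2-fold. Lists of this size say little at those shares over all genes. In 2 neighbouring lists, 0 of 6 urea cycle genes (median log2 ratio -0.41) and 2 of 13 genes of amino acid breakdown (median -0.20) were 2-fold lower with suffix 1, where 2.15% of all genes were. The last were Hpd, which breaks down tyrosine (594 and 1250 CPM), and Hal, which breaks down histidine (198 and 503 CPM).

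The second comparison set shallow droplets against deep hepatocytes of the same library. The shallow droplets differed in more than depth. Their median mitochondrial share was 1.64% in suffix 1 and 3.42% in suffix 2, where deep hepatocytes had 15.9% and 15.5%. None of the 10 members was at least 1.5-fold lower in shallow droplets in either library, while 31.4% of 4875 genes with suffix 1 and 18.4% of 4604 genes with suffix 2 were. With suffix 1, 5 members were at least 1.5-fold higher in shallow droplets (20.2% of all genes). CPM counts mitochondrial UMIs in its denominator, so the larger mitochondrial share of deep cells lowers their CPM of other genes. The count of higher members with nuclear UMIs as denominator was not tested. With suffix 2, 0 members were (6.82% of all genes).

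The 5 were Gnmt, Bhmt, Cth, Pemt and Nnmt. Gnmt was at 4085 CPM in shallow droplets with suffix 1, 1.98 times (1.96 to 2.01) its level in deep cells, and at 2677 CPM with suffix 2, 1.22 times (1.19 to 1.24). Bhmt was at 7761 CPM, 1.55 times its deep level, and 3857 CPM, 1.27 times. Nnmt was 1.71 and 1.30 times its deep level, Cth 1.68 and 1.18 times, and Pemt 1.64 and 1.46 times. All 5 were thus above their deep level in both libraries.

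Mat1a and Sardh went the other way in both. The shallow level of Mat1a was 0.751 times (0.735 to 0.766) its deep level with suffix 1 and 0.678 times (0.658 to 0.699) with suffix 2. For Sardh it was 0.678 times (0.646 to 0.712) and 0.764 times (0.710 to 0.822). Cbs was higher in shallow droplets with suffix 1 (1.13 times) and lower with suffix 2 (0.865 times). Ahcy was at 0.938 and 0.833 times its deep level and Shmt1 at 0.915 and 0.872 times.

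**Figure D3:**
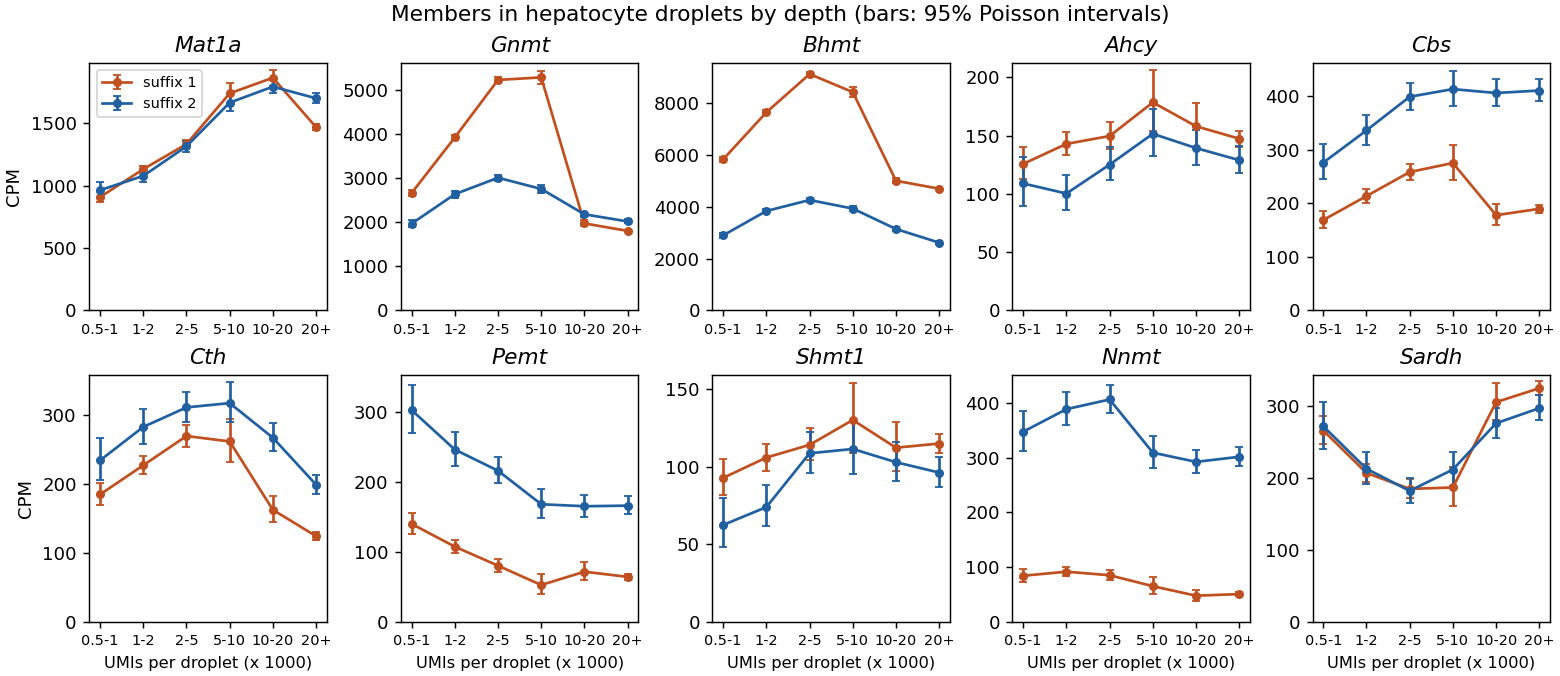
Level of each member (CPM, axis from 0) in hepatocyte droplets of 6 depth ranges, in units of 1000 UMIs per droplet, for both libraries. Bars are 95% Poisson intervals. Gnmt with suffix 1 peaks at 5275 CPM in droplets of 5000 to 10000 UMIs and falls to 1968 CPM in the next range, while Nnmt with suffix 2 stays above suffix 1 in all 6.

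Across 6 depth ranges Gnmt with suffix 1 was at 2656 CPM in droplets of 500 to 1000 UMIs, 3915 at 1000 to 2000, 5218 at 2000 to 5000, 5275 at 5000 to 10000, 1968 at 10000 to 20000 and 1798 at 20000 or more. With suffix 2 it was at 1962, 2629, 3002, 2748, 2174 and 2012 CPM in the same ranges. The levels rose to the middle depths and were lower again in the deepest cells in both libraries. Alb had its lowest levels at those same depths. It was at 42818 CPM at 500 to 1000 UMIs, 21029 CPM at 5000 to 10000 and 39018 CPM at 20000 or more with suffix 1. In the same ranges Fabp1 went the other way with suffix 1, at 26673, 35345.5 and 17882 CPM. The nuclear RNA Malat1 was highest at 5000 to 10000 UMIs with suffix 1 (4969 CPM) and at 2000 to 5000 UMIs with suffix 2 (7343 CPM). The part of cell state and of free RNA in these depth patterns was not tested.

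The third comparison asked whether cells other than hepatocytes held the members. Hepatocyte UMIs occurred in every class, and a Gnmt UMI was found in 84.6% of the 175 B cells of suffix 1 and 60.1% of the 143 of suffix 2 (medians of 3563 and 2981 UMIs), while 100% and 99.8% of deep hepatocytes had one. No empty droplets were profiled and no doublets were called, so free RNA and doublets as sources of these UMIs cannot be told apart. Member UMIs were therefore set against UMIs of the 14 hepatocyte markers in the same class and compared with that ratio in shallow hepatocyte droplets. A pair of member and class counted as above this reference when the lower bound of this relative ratio was 2 or more. In 11 classes per library of at least 20 cells, 0 of 220 pairs did, against 46% of 97746 pairs over all genes, which include each class's own genes. The shallow droplets are gated hepatocytes and not a pure sample of free RNA.

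**Figure D4:**
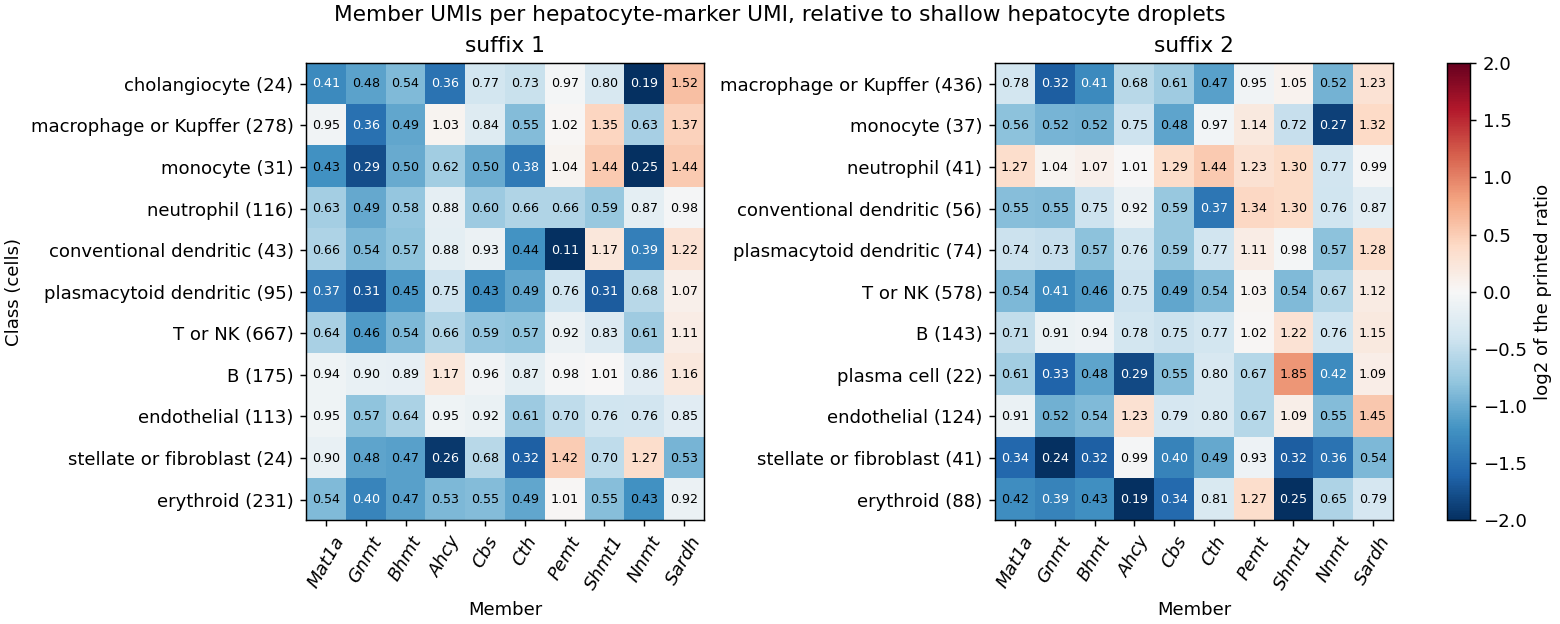
Relative ratio (member UMIs per hepatocyte-marker UMI, divided by the same in shallow hepatocyte droplets of that library) for each member and class, with the number of cells beside each class. Colour is the log2 of the printed ratio, blue below and red above the droplets. Most cells of the grid are blue, Gnmt and Bhmt sit near 0.5 in many classes, and Sardh is at or above 1 in most.

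Of the 220 pairs, 99 had intervals below the droplets' ratio and 4 above it. Over all genes 5.16% of pairs were below it and 60.1% above it, again with each class's own genes included. Gnmt had a median relative ratio of 0.478 over the 11 classes with suffix 1 and 0.515 with suffix 2, and Bhmt of 0.538 and 0.519. Both were below the reference in 11 of 11 classes with suffix 1 and 9 of 11 with suffix 2. That reference held Gnmt at 1.98 and 1.22 times its deep level and Bhmt at 1.55 and 1.27 times. These relative ratios thus depend on the depth pattern of the reference as well. Sardh had medians of 1.11 and 1.12, and Pemt of 0.971 and 1.03.

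Of the 4 pairs over the reference, 3 were Sardh. In macrophages or Kupffer cells Sardh was over it in both libraries, at 1.37 times (1.16 to 1.61, 147 UMIs in 278 cells) in suffix 1 and 1.23 times (1.04 to 1.44) in suffix 2, and in endothelial cells at 1.45 times (1.04 to 1.96) in suffix 2. The other pair was Shmt1 in macrophages or Kupffer cells, at 1.35 times (1.05 to 1.69) in suffix 1. The shallow droplets of this reference held both genes below their deep level. Sardh was at 0.678 times it in suffix 1 and 0.764 times in suffix 2, and Shmt1 at 0.915 and 0.872 times. How these pairs stand against deep hepatocytes was not tested, so no expression in those classes is read from them. Nnmt had a median of 0.631 with suffix 1 and 0.565 with suffix 2. In stellate cells or fibroblasts 3 UMIs in 24 cells gave 1.27 times the reference (0.263 to 3.72) in suffix 1, and 5 UMIs in 41 cells gave 0.361 times (0.117 to 0.843) in suffix 2.

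The fourth comparison ranked the deep hepatocytes by markers of the liver lobule, in which hepatocytes near the central vein and near the portal tract use different genes. Deep hepatocytes with at least 10 UMIs of zonal markers (641 with suffix 1 and 532 with suffix 2) were ranked by pericentral markers such as Glul and Cyp2e1 against periportal markers such as Cyp2f2. The 213 cells at each end were compared with suffix 1, and the 177 at each end with suffix 2. The ends are ranges of a score and not cell types. Cyp2e1 rose from 79.9 to 892 CPM from the periportal to the pericentral end with suffix 1 and from 97.1 to 838 CPM with suffix 2, which is what the ranking used. Of the periportal genes that the ranking did not use, Ass1 was higher at the pericentral end in both libraries (1880 to 2241 CPM in suffix 1, 2667 to 2999 CPM in suffix 2), and Cps1 was higher there in suffix 1 (1229 to 1714 CPM) and lower in suffix 2 (1973 to 1533 CPM). Cyp2c29 moved with Cyp2e1, from 24.6 to 115 CPM with suffix 1 and from 29.4 to 142 CPM with suffix 2. Cyp2c50 did too, from 77.8 to 231 CPM and from 31.3 to 143 CPM. With genes going both ways, the ends are read as ends of this score and not as places in the lobule.

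None of the members was 1.5-fold higher or lower at the pericentral end in both libraries, against 1.69% of 4450 genes higher and 0.629% lower. Cth came closest, at 1.55 times (1.39 to 1.73) its periportal level with suffix 1 and 1.31 times (1.17 to 1.47) with suffix 2. Bhmt was at 1.15 times (1.13 to 1.17) and 1.42 times (1.38 to 1.47), and Gnmt at 1.30 times (1.27 to 1.34) and 1.16 times (1.12 to 1.21). Pemt was at 1.35 and 1.19 times. Ahcy was at 1.32 times (1.19 to 1.47) and 1.10 times (0.947 to 1.29), and Shmt1 at 1.02 and 1.08 times, with intervals that held 1 in both libraries. These 6 members were above 1 in both.

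**Figure D5:**
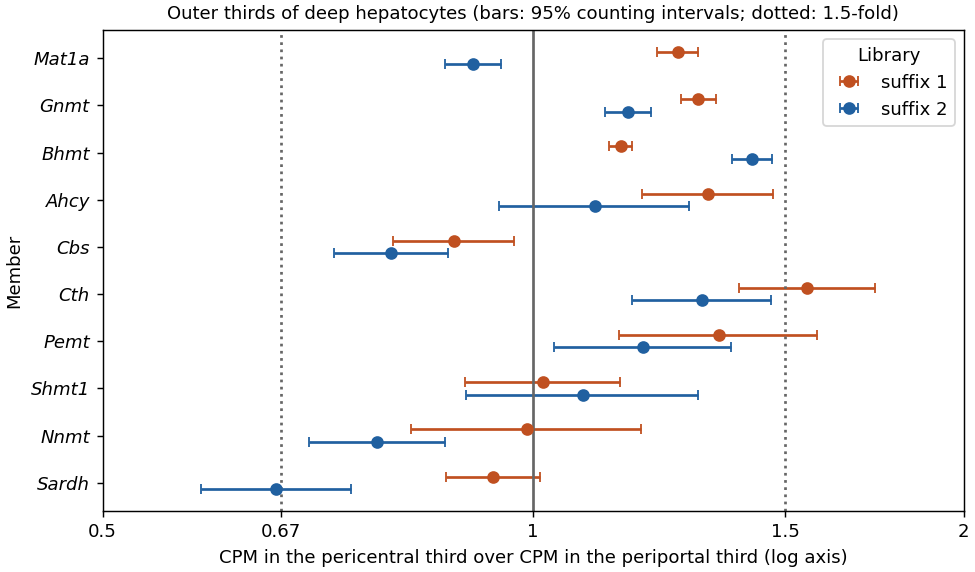
CPM of each member at the pericentral end over CPM at the periportal end of ranked deep hepatocytes (log axis), for both libraries, with 95% counting intervals. Dotted lines mark 1.5-fold in either direction. Cth with suffix 1 and Sardh with suffix 2 lie past a dotted line, and 0 members do so in both libraries.

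Cbs, Sardh and Nnmt leaned to the periportal end. For Sardh and Nnmt the interval held 1 with suffix 1. Cbs was at 0.881 times (0.798 to 0.970) its periportal level with suffix 1 and 0.796 times (0.725 to 0.872) with suffix 2. Sardh was 1.51-fold higher (1.34 to 1.71) at the periportal end with suffix 2 and 1.07-fold (0.989 to 1.15) with suffix 1. Mat1a took opposite directions, 1.26 times (1.22 to 1.30) with suffix 1 and 0.908 times (0.868 to 0.949) with suffix 2. Nnmt was at 0.990 times (0.822 to 1.19) its periportal level with suffix 1 and 0.778 times (0.697 to 0.867) with suffix 2.

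The ends also differed in depth. The median was 30589 UMIs at the periportal and 11430 at the pericentral end with suffix 1, and 16863 and 7670 with suffix 2. Alb moved with them, from 41459 to 30695 CPM and from 46761 to 28856 CPM. The part of depth in the zonal ratios was not tested.

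The last measurement was the spread among deep hepatocytes of 1 library, each thinned to 5000 UMIs. Counts that vary by sampling alone have a variance equal to their mean, a Fano factor of 1. Gnmt stood at 12.1 with suffix 1 and 5.62 with suffix 2. Its cells with suffix 1 had a median of 9 UMIs, while the lowest 5% held at most 2.35 and the highest 5% at least 44. Bhmt stood at 8.81 and 5.32, and Mat1a at 2.72 and 2.49. Among the 490 and 320 cells of at least 10000 UMIs, thinned alike, the factor was 4.99 and 3.89 for Gnmt, 4.43 and 3.59 for Bhmt and 2.60 and 2.27 for Mat1a. Leaving out the cells just above the 5000-UMI limit thus moved Gnmt and Bhmt by over 1.5 times in suffix 1, and moved both by less in suffix 2 and Mat1a by less in either library. The other 7 members, all with at most 2.13 UMIs per thinned cell on average, lay between 0.970 and 1.55.

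Gnmt and Bhmt varied together, with a Pearson r of log2(UMIs + 1) of 0.62 across 648 cells with suffix 1 and 0.51 across 534 with suffix 2. In cells of at least 10000 UMIs r was 0.42 and 0.43. These are descriptions over cells that share a library, and no p is given. Among 1023 genes of at least 100 CPM in both libraries, the most like Gnmt were Ass1, an enzyme of the urea cycle (r 0.65 and 0.63), Ttc36 (0.61 and 0.58) and Acaa2, an enzyme of fatty acid oxidation (0.59 and 0.57). The most like Bhmt were Gnmt, Akr1c6 (0.50 and 0.52) and Cyb5a (0.54 and 0.49). Genes like Mat1a included Cat, the catalase gene (0.47 and 0.35), and Cps1, an enzyme of the urea cycle (0.39 and 0.32). Apart from that of Gnmt with Bhmt, these r values cover all deep cells and were not repeated in cells of at least 10000 UMIs.

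No gene reached an r of 0.3 in both libraries with any of the other 7 members, whose counts per cell were low. Mat1a, despite a level near that of Gnmt, had r of 0.09 and -0.09 with it. Alb ran against Gnmt (r -0.57 with suffix 1 and -0.27 with suffix 2) and against Bhmt (-0.50 and -0.45). It did not run against Mat1a (-0.01 and 0.05). Fabp1 ran with Gnmt (0.56 and 0.39) and with Bhmt (0.48 and 0.34). Malat1 ran against Gnmt (-0.46 and -0.33) and Bhmt (-0.40 and -0.24). These r values also come from all deep cells and were not repeated in cells of at least 10000 UMIs.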

How the data were processed

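The authors deposited 1 matrix of whole-number UMI counts, 32285 genes by 32316 barcodes, which the header assigns to Cell Ranger 7.1.0. The submitters' processing notes also name bcl2fastq 2.20.0, STAR 2.7.2a and build mm10. The sources used here do not give the annotation, the cell calling, intron counting or any equalizing of depth. The 2 libraries together held 112403889 UMIs.

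Droplets were classed by marker gates in Python 3.11.15 (numpy 2.4.6, scipy 1.17.1, pandas 2.3.3). A class other than hepatocytes needed 3 markers and 0.1% of nuclear UMIs (erythroid cells 20%), and hepatocytes needed 5% from hepatocyte markers. Droplets that passed such a gate were left out as mixed in 2 cases. In the first, another passing list had at least 0.5 times the best list's share of detected markers. In the second, hepatocyte markers held 10% or more of nuclear UMIs. Droplets that passed no gate were left unnamed, and no doublet caller was run. Summed UMIs were given as CPM with exact Poisson intervals, ratios with exact conditional intervals and shares with exact binomial intervals. The scripts were tested on simulated data. Settings tried were other mitochondrial, depth and fold limits, gates, denominators, scalings, thinning and references for free RNA.

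Members and lists were chosen with earlier results of these data known. The gate went through 3 forms with member values in view, and the present one was kept. The 5000-UMI limit, the promoters shown and 3 added settings were also chosen after values were seen. Named genes are all members, listed pathway genes past 2-fold, and up to 3 genes per member with r of at least 0.3 in both libraries. One gene that this rule names is not reported here.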

Additional observations from a re-analysis of the deposited data

Results flagged for a closer look

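Droplets over the mitochondrial limit entered only alternative settings, and they held member UMIs. They are given for that reason alone, and any detected UMI would have met it. Their summed level of the 10 members was 2839 CPM in 5675 droplets with suffix 1 and 1764 CPM in 8886 droplets with suffix 2, against 9615 and 8590 CPM in deep hepatocytes. The unnamed droplets also held the members, at 9163 CPM in 127 droplets with suffix 1 and 4594 CPM in 66 droplets with suffix 2. Malat1 was at 35627 and 31823 CPM in the unnamed droplets, against 2335 and 2460 CPM in deep hepatocytes.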

How the results depend on the processing

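No paired analysis was possible with 1 sample per genotype and no sample label on the barcode suffixes, and no result comes from a test. The count of members past 2-fold between the libraries was 2 or 3 in every setting but the 3-fold limit, where it was 1 (Nnmt). The count of members 1.5-fold lower in shallow droplets, 0 in both libraries, became 2 with suffix 1 and 4 with suffix 2 at a mitochondrial limit of 50%, 4 with suffix 2 without a limit, 2 and 1 with nuclear UMIs as denominator, and 1 and 1 with the mean over cells. It became 1 with suffix 1 when deep began at 10000 UMIs, and 1 with suffix 2 when it began at 2000 UMIs or under the stricter gate. Pairs of member and class above the droplet reference rose from 0 to 1 under the looser gate and to 23 with droplets over the mitochondrial limit in its place. Members past 1.5-fold between the zonal ends rose from 0 to 9 without a mitochondrial limit. The causes were not tested. The median of all genes shifted by 0.28 (log2) at a limit of 10% and by 0.37 without one, against 0.03 as reported. Bhmt was past 2-fold without a limit (1.11). Gnmt took either sign, from -0.25 to 0.38. Cth was at -0.51 with depth bins weighted equally, against -0.81. Pemt ranged from -1.98 to -1.22 and Nnmt from -3.11 to -2.23. Thinning and depth bins were not run for the shallow droplets. Depth limits the 7 members of low count per cell, and with 1 sample per genotype no interval covers the spread between animals.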
